A study of Mus musculus with 18 samples.

Results

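Transcripts of 9 genes that encode phosphoinositide kinases other than VPS34, or parts of the PIKfyve complex, were measured in mouse oocytes with and without VPS34. The genes were chosen by symbol from the 55291 genes of the deposited count table: Pik3ca, Pik3cb and Pik3r1 of class I phosphatidylinositol 3-kinase, Pik3c2a and Pik3c2b of class II, the 4-kinase Pi4k2a, and Pikfyve, Vac14 and Fig4. The question was whether transcripts of other kinases of the family change when VPS34, the class III enzyme encoded by Pik3c3, is lost. ZcKO oocytes came from females with 2 floxed Vps34 alleles and a Zp3-Cre transgene, and Vps34f/f oocytes from females with the same floxed alleles and no Cre listed. The Zp3 promoter is active in growing oocytes, so Cre acts in the oocyte and not in the follicle cells around it. All females were 5 weeks old. Ovulated oocytes at metaphase II (MII) were taken 14 h after an injection of the ovulation hormone hCG, and fully grown germinal vesicle (GV) oocytes 46 h after PMSG, which makes follicles grow. Each library held the RNA of 5 pooled oocytes with ERCC spike-in RNAs, and each genotype had 3 libraries per stage (n = 3 throughout). The 6 samples of 2-cell embryos were not analysed here.

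Phosphoinositide kinases add phosphate to the inositol ring of membrane phosphatidylinositol lipids, and the position of the phosphate marks a membrane as plasma membrane, Golgi, endosome or lysosome. Class I enzymes make the plasma membrane signal that activates AKT, whereas VPS34 and the class II enzymes make phosphatidylinositol 3-phosphate or related lipids on endosomes and autophagosomes. PIKfyve phosphorylates the product of VPS34 further to make the bisphosphate that lysosomes need, and it works only in a complex with the scaffold VAC14 and the phosphatase FIG4. Fully grown oocytes make almost no new RNA, and during maturation stored mRNAs are degraded or kept and translated, often under the control of elements near the poly(A) signal.

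The ends of 4 transcripts are shown, chosen with their stage differences known. Pik3c2a and Pik3c2b had the largest positive stage differences relative to other mRNAs, and Vac14 the largest negative one. Pikfyve, the partner of Vac14, was also higher at MII on that scale. Each end is a 30-base window of the GRCm38 genome read 5′ to 3′ on the transcript's strand. It lies at the end of the gene's longest complete coding transcript in GENCODE M21. In Pikfyve (chr1:65278653-65278682, plus strand) and Vac14 (chr8:110720362-110720391, plus strand) the capitals mark the poly(A) signal AATAAA. In Pik3c2a (chr7:116337330-116337359, minus strand) they mark TTTTAT, a core form of the cytoplasmic polyadenylation element, which starts 85 bases before the transcript end. In Pik3c2b (chr1:133108658-133108687, plus strand) they mark TTTTAAT, another form of the element, and the AATAAA that overlaps it.
Pikfyve: aagacgagatatAATAAAtcagctctacag
Vac14: catccctgccccAATAAAgaaatcacagaa
Pik3c2a: tgtataatatTTTTATtaatacttggaata
Pik3c2b: tgtattTTTTAATAAAcgacatttgagaaa
Among the last 100 bases of 10109 transcripts of tested genes, searched on the transcript strand, 66.6% held AATAAA, 15.5% TTTTAT and 5.71% TTTTAAT. Of the 9 genes, 8 held AATAAA in that window, Pi4k2a being the exception. TTTTAT or TTTTAAT stood in 2 of the 9, Pik3c2a and Pik3c2b, and in 20.1% of all transcripts. Pik3r1, Pikfyve and Pik3ca, which were also called higher at MII relative to other mRNAs, held neither form. These letters are a description of the window and were not tested for use by the oocyte.

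The libraries held 2609783 to 4696626 gene counts. All 12 oocyte markers had counts in every group, and summed to 17096 to 21218 CPM (counts scaled to the gene total of the library, per 1e6) at MII and 32538 to 46711 CPM at GV. Cumulus and granulosa markers summed to 149 to 779 CPM in ZcKO MII libraries and 195 to 358 CPM in Vps34f/f MII libraries, where 14 and 15 of 16 had a count. In GV libraries they summed to 74.7 to 100.3 CPM in ZcKO, with 13 of 16 counted, and 97.4 to 126.8 CPM in Vps34f/f, with 14 of 16. Amh was at 0 in both MII groups, Fshr in ZcKO MII, Ptx3 and Tnfaip6 in both GV groups and Foxl2 in ZcKO GV. Blood and immune markers summed to at most 11.4 CPM at MII and 80.5 CPM at GV, with C1qb the highest and all 4 globin genes at 0 in both MII groups. Theca, stroma and endothelium markers summed to 31.4 to 102.8 CPM, with Pecam1 the highest. Gene counts per spike-in count were 1.51 to 2.42 in MII libraries and 4.35 to 13.1 in GV libraries. The labels do not tie libraries to animals, so p-values measure the spread between libraries, and reads carried no molecular identifiers.

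Pik3c3, the gene deleted in ZcKO, was checked first. At MII its level was 5.36, 2.42 and 3.21 CPM in ZcKO libraries, against 10.6, 21.4 and 17.1 CPM in Vps34f/f libraries. At GV it was 1.56, 1.65 and 2.67 CPM in ZcKO, against 35.5, 28.8 and 25.8 CPM in Vps34f/f. The groups did not overlap at either stage. The GV fall was 15.7-fold (log2 fold change -3.97, SE 0.32) and passed edgeR's quasi-likelihood test with an adjusted p of 1.5e-04. The MII difference (log2 fold change -2.19, SE 0.39) had an adjusted p of 0.530 by the same test and was not called. The column names use the letters C and T, read as control and test, and the direction of all genotype differences depends on that reading. These counts had been seen when the letters were read.

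The levels of the 9 genes were then compared between genotypes. At GV, none of the 9 was called different between ZcKO and Vps34f/f oocytes by edgeR's quasi-likelihood test after Benjamini-Hochberg adjustment over 10911 genes. Of all genes tested in that comparison, 0.0825% were called. DESeq2 also called 0 of the 9 (0.108% of all genes with an adjusted p), and 0 of the 9 had an unadjusted edgeR p under 0.05, a level that 2.20% of all genes passed. Log2 fold changes ran from -0.20 for Pik3cb to 0.37 for Pi4k2a, with a median of -0.043 against 0.012 over all genes tested. All adjusted p-values by edgeR were 0.99991.

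At MII, 8 of the 9 genes had enough counts to be tested, and 0 of them was called by edgeR's quasi-likelihood test, nor was any other of the 9677 genes tested (0% called). DESeq2 called 0 of the 9, and 0.00443% of all genes. By edgeR, 1 of the 8, Pik3c2b, had an unadjusted p under 0.05, which 9.01% of all genes had. All 8 fold changes were above 0, with a median of 0.26 on the log2 scale, where 51.9% of all genes were above 0 with a median of 0.017. With spike-in totals 4 of the 8 (Pik3ca, Pik3cb, Vac14 and Pi4k2a) were below 0. Of 10 cumulus and granulosa markers tested at MII 8 were above 0 with TMM scaling, with a median of 0.69 and 0 called, and their part was not tested. In 2 of the 8, Pik3c2a and Pik3c2b, every ZcKO library was above every Vps34f/f library, and 15.8% of all genes tested had groups that did not overlap. At GV this held for 1 of 9, Pikfyve, with all ZcKO libraries higher, against 7.26% of all genes.

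**Figure D1:**
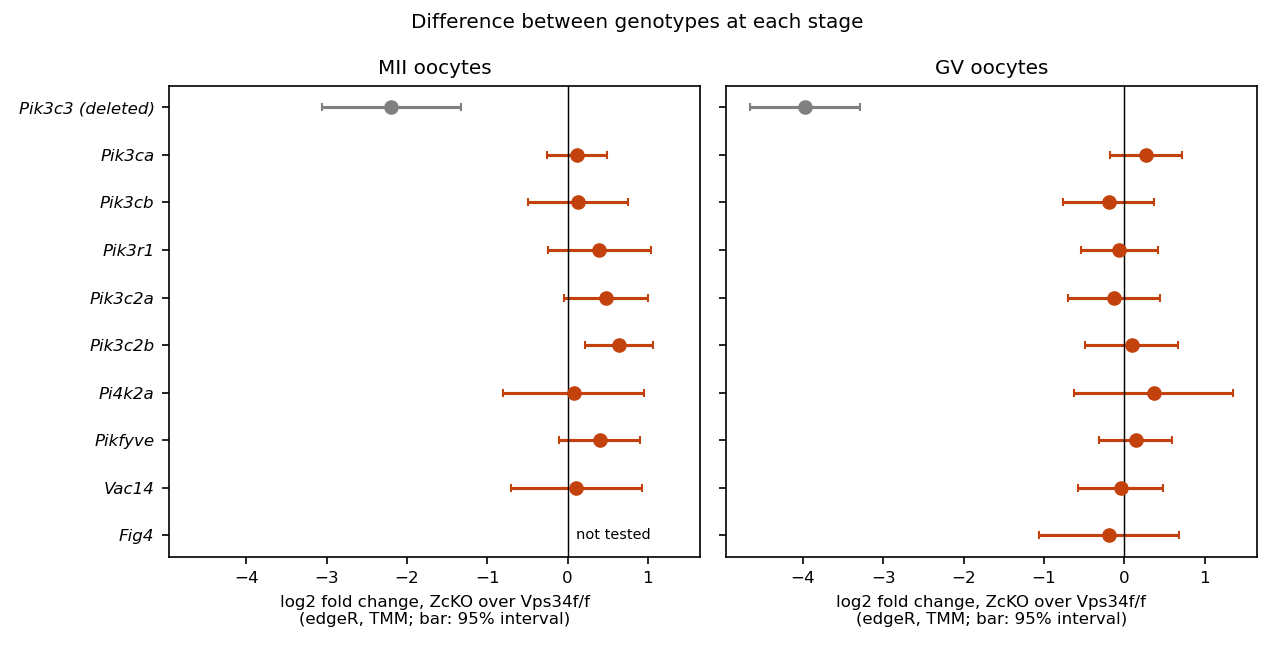
Log2 fold change of each gene in ZcKO over Vps34f/f oocytes (x axis; TMM scaling, bars are 95% intervals) at MII on the left and GV on the right, with the deleted Pik3c3 in grey for scale. The intervals of all 9 genes at GV, and of 7 of the 8 tested at MII, include 0, and Pik3c2b at MII runs from 0.21 to 1.07 before adjustment.

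The class I catalytic subunits had the smallest average spread within groups of the 9 genes. Gene positions are those of GRCm38 in GENCODE M21. Pik3ca (chr3:32397671-32468486, plus strand), which encodes p110α, had 71.3, 62.4 and 72.4 CPM in ZcKO MII libraries, against 58.6, 67.3 and 59.7 CPM in Vps34f/f MII libraries. At GV it had 51.9, 59.8 and 45.7 CPM in ZcKO, against 46.7, 35.4 and 45.1 CPM in Vps34f/f. The genotypes overlapped at both stages. Its log2 fold change in ZcKO was 0.12 at MII (95% interval -0.26 to 0.49) and 0.27 at GV (-0.18 to 0.72). Pik3cb (chr9:99036654-99140621, minus strand), which encodes p110β, stayed between 10.3 and 15.04 CPM in all 12 libraries. Its log2 fold change was 0.13 at MII (-0.50 to 0.76) and -0.20 at GV (-0.76 to 0.37). The average spread within a group, 0.17 for Pik3ca and 0.19 for Pik3cb on the log2 scale, was small: 5.59% and 9.66% of all genes tested had a smaller one.

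Pik3r1 (chr13:101680563-101768217, minus strand) encodes the p85α regulatory subunit and its shorter forms, which hold and restrain the class I catalytic subunits. Its level was 254, 262 and 253 CPM in ZcKO MII libraries, against 93.5, 271 and 216 CPM in Vps34f/f MII libraries. At GV the levels were 91.8, 101 and 93.0 CPM in ZcKO, against 126, 64.1 and 101 CPM in Vps34f/f. The groups overlapped at both stages, and the first Vps34f/f MII library was low. At MII the log2 fold change was 0.39 (95% interval -0.25 to 1.04). With 1 library left out it ran from 0.096, without that library, to 0.68. At GV it was -0.060 (-0.54 to 0.42).

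Of the class II kinases, which act in endocytosis, endosome traffic and cilia, Pik3c2b (chr1:133045667-133108687, plus strand) had the smallest p of the 9 genes in a comparison of genotypes. Its levels were 82.4, 74.5 and 97.7 CPM in ZcKO MII libraries, against 47.4, 48.9 and 63.5 CPM in Vps34f/f MII libraries. All ZcKO libraries lay above all Vps34f/f libraries. Its log2 fold change was 0.64 (SE 0.19, 95% interval 0.21 to 1.07), with an unadjusted p of 0.00698 and an adjusted p of 0.530 by edgeR's quasi-likelihood test, so it was not called. At GV, Pik3c2b had 18.04, 27.6 and 26.7 CPM in ZcKO, against 30.4, 18.5 and 17.2 CPM in Vps34f/f, and the groups overlapped (log2 fold change 0.096, interval -0.48 to 0.68). With 1 library left out the MII fold change of Pik3c2b ran from 0.50, without the third ZcKO library, to 0.77, without the third Vps34f/f library. It was 0.67 without the first ZcKO MII library, which had the highest cumulus and granulosa marker sum, 779 CPM. The part of those cells in the Pik3c2b difference was not tested.

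Pik3c2a (chr7:116337265-116443449, minus strand) had 164, 179 and 178 CPM in ZcKO MII libraries, against 69.2, 153 and 147 CPM in Vps34f/f MII libraries. The groups did not overlap, and the first Vps34f/f library lay far below the other two. A log2 fold change of 0.48 (SE 0.24, 95% interval -0.040 to 1.0002) was not called by edgeR's quasi-likelihood test (adjusted p = 0.559). With 1 library left out it ran from 0.23, without that library, to 0.63. At GV, Pik3c2a had 30.8, 51.2 and 51.7 CPM in ZcKO, against 58.2, 30.3 and 53.2 CPM in Vps34f/f, and the groups overlapped (log2 fold change -0.13, interval -0.70 to 0.44). In the annotation, 1369 exon bases of Pik3c2a overlap Gm44777 on the opposite strand, and how the authors' counting treated strand was not given.

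Pi4k2a (chr19:42090470-42122087, plus strand) encodes the type II alpha enzyme that makes phosphatidylinositol 4-phosphate on the Golgi and endosomes. It had 7.28, 9.38 and 6.42 CPM in ZcKO MII libraries, against 4.63, 5.43 and 11.4 CPM in Vps34f/f MII libraries. At GV it had 29.2, 29.2 and 11.997 CPM in ZcKO, against 10.1, 30.9 and 11.7 CPM in Vps34f/f. High and low libraries stood side by side in both GV groups, so the 95% intervals are wide. Its log2 fold change was 0.077 at MII (-0.80 to 0.95) and 0.37 at GV (-0.62 to 1.35). The GV value was 0.082 without the first Vps34f/f library and 1.09 without the second.

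Of the PIKfyve complex genes, Pikfyve had the smallest average spread within a group, 0.25 on the log2 scale against 0.43 for Vac14 and 0.75 for Fig4, though in Vps34f/f MII libraries Vac14 was the tighter for its level (8.86 ± 1.76 CPM, against 47.9 ± 14.5 CPM for Pikfyve; SD, n = 3). Pikfyve (chr1:65186683-65278695, plus strand) had 59.4, 59.0 and 74.1 CPM in ZcKO MII libraries, against 31.9, 51.6 and 60.3 CPM in Vps34f/f MII libraries, and these groups overlapped. At GV it had 28.9, 32.5 and 28.3 CPM in ZcKO, against 26.7, 27.7 and 24.3 CPM in Vps34f/f, and these did not. The GV gap was small, with a log2 fold change of 0.14 (95% interval -0.31 to 0.60, unadjusted p = 0.505 by edgeR). At MII the log2 fold change was 0.40 (-0.10 to 0.91). With 1 library left out it ran from 0.22, without the low first Vps34f/f library, to 0.59.

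Vac14 (chr8:110618585-110720398, plus strand), the scaffold gene, had 5.36, 12.4 and 11.4 CPM in ZcKO MII libraries, against 8.18, 7.55 and 10.9 CPM in Vps34f/f MII libraries. At GV it had 53.8, 64.2 and 39.99 CPM in ZcKO, against 50.7, 63.6 and 43.6 CPM in Vps34f/f. The genotypes overlapped at both stages and had the same GV mean, 52.7 CPM. In ZcKO its log2 fold change was 0.11 at MII (95% interval -0.70 to 0.92) and -0.043 at GV (-0.57 to 0.49).

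Fig4 (chr10:41188172-41303260, minus strand), the lipid phosphatase gene, was near the limit of detection. Its counts were 12, 3 and 3 in ZcKO MII libraries, against 10, 1 and 8 in Vps34f/f MII libraries, too few to be tested at that stage. At GV they were 12, 12 and 8 in ZcKO, against 12, 11 and 18 in Vps34f/f, or 3.23 ± 0.537 CPM and 3.598 ± 0.613 CPM (SD, n = 3 each). The log2 fold change at GV was -0.19 (95% interval -1.06 to 0.69), an interval that includes a 2-fold fall.

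**Figure D2:**
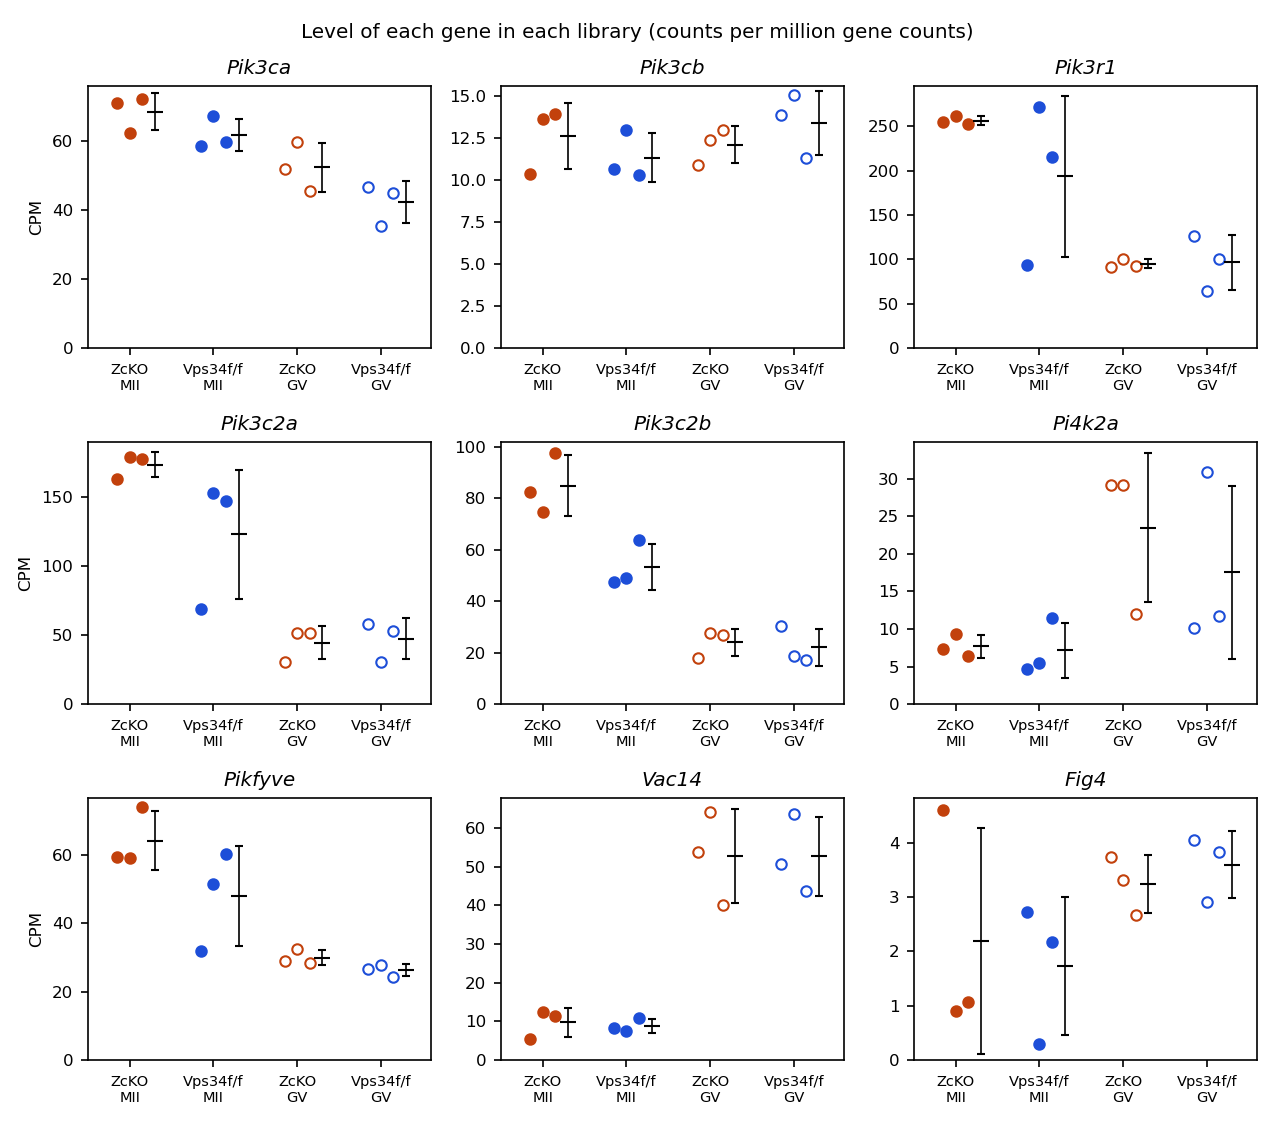
Level in CPM (y axis, from 0) of each gene in each of the 12 libraries, ZcKO in orange and Vps34f/f in blue, MII filled and GV open, with the mean and SD as black marks. Pik3c2a, Pik3c2b, Pik3r1 and Pikfyve were mostly higher at MII, Vac14 was lower at MII in every library of both genotypes, and the first Vps34f/f MII library was low for Pik3r1, Pik3c2a and Pikfyve; relative to the spike-ins, no gene of the 9 was higher at MII.

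Most of the 9 genes were called different between stages. Relative to other mRNAs (TMM scaling), 7 of the 9 were called different between MII and GV oocytes in ZcKO by edgeR's quasi-likelihood test, 5 higher and 2 lower, where 63.5% of all 11607 genes were called, 29.5% higher and 34.0% lower. In Vps34f/f the count was also 7, with 5 higher and 2 lower, where 63.9% of all genes were called, 30.1% higher and 33.8% lower. The higher genes were Pik3ca, Pik3c2a, Pik3c2b, Pik3r1 and Pikfyve and the lower ones Vac14 and Pi4k2a, in both genotypes. A share of 7 in 9 is not far above that background. Libraries of the stages did not overlap for 7 of the 9 in ZcKO (65.3% of all genes) and for 6 in Vps34f/f (67.3%). With TMM scaling the cumulus and granulosa markers moved with stage as well: 8 of the 11 tested were called higher at MII and 0 lower in ZcKO, and 7 higher and 1 lower in Vps34f/f by edgeR, and their part in the changes of the 9 genes was not tested. DESeq2 made 7 calls in each genotype too, where it called 46.9% of all genes with an adjusted p in ZcKO and 48.1% in Vps34f/f.

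Relative to the spike-ins, no gene of the 9 was higher at MII. On that scale the median log2 change of all genes was -2.37 in ZcKO and -1.72 in Vps34f/f, against -0.043 and 0.0056 with TMM scaling, and the 5 genes that were higher relative to other mRNAs had negative values. With spike-in totals as library sizes edgeR called 6 of the 9 in ZcKO, where 88.8% of all genes were called, 88.0% lower and 0.801% higher. In Vps34f/f it called 5, where 70.7% of all genes were called, 70.1% lower and 0.560% higher. All of these calls among the 9 were lower. Less RNA per oocyte at MII and a different yield of the reaction cannot be told apart in the spike-in ratios. Neither scale shows whether the capture of a single mRNA in cDNA synthesis differed between stages, and poly(A) tail lengths were not measured.

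Class II kinases and the class I regulatory subunit rose most relative to other mRNAs. Pik3c2a was 4.33-fold higher at MII in ZcKO (log2 fold change 2.11, SE 0.27, adjusted p = 2.4e-06 by edgeR's quasi-likelihood test) and 2.85-fold higher in Vps34f/f (1.51, SE 0.27, 7.8e-05), while its spike-in-scaled change was -0.15 in both. Pik3c2b was 3.91-fold higher in ZcKO (1.97, SE 0.24, adjusted p = 1.7e-06 by the same edgeR test) and 2.70-fold higher in Vps34f/f (1.43, SE 0.24, 5.2e-05), with spike-in-scaled changes of -0.34 and -0.22. No spike-in-scaled change of either class II gene was called, with edgeR adjusted p-values of 0.457 to 0.746. Pik3r1 was 2.97-fold higher in ZcKO and 2.18-fold higher in Vps34f/f (adjusted p = 5.8e-05 and 0.00122 by edgeR), with spike-in-scaled log2 changes of -0.78 and -0.50 that were not called (0.0624 and 0.2505).

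Pikfyve was 2.37-fold higher at MII in ZcKO and 1.99-fold higher in Vps34f/f relative to other mRNAs (adjusted p = 1.2e-04 and 9.3e-04 by edgeR's quasi-likelihood test). Against the spike-ins its log2 change was -1.13 in ZcKO, a called fall (adjusted p = 0.0137 by edgeR), and -0.69 in Vps34f/f, which was not called (0.151). Pik3ca was 1.44-fold higher in ZcKO and 1.61-fold higher in Vps34f/f (adjusted p = 0.0254 and 0.00499 by edgeR), against spike-in-scaled log2 changes of -1.84 and -1.05, both called. The ZcKO call of Pik3ca was lost without the first ZcKO MII library, the third ZcKO MII library or the third ZcKO GV library (edgeR adjusted p = 0.0548, 0.0847 and 0.101). Without the filter on low counts both calls of Pik3ca were lost (edgeR adjusted p = 0.168 in ZcKO and 0.0565 in Vps34f/f). Pik3cb was not called with TMM scaling, at a log2 change of 0.21 (95% interval -0.36 to 0.79) in ZcKO and -0.11 (-0.67 to 0.46) in Vps34f/f. Against the spike-ins Pik3cb was -2.11 and -1.82, both called lower.

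Measured Vac14 levels were lower at MII than at GV on every scale used. Relative to other mRNAs it was 4.86-fold lower at MII in ZcKO (log2 fold change -2.28, SE 0.31, adjusted p = 4.8e-06 by edgeR's quasi-likelihood test) and 5.38-fold lower in Vps34f/f (-2.43, SE 0.31, 2.1e-06). Its spike-in-scaled log2 change was -4.67 in ZcKO and -4.15 in Vps34f/f. Pi4k2a was 2.79-fold lower in ZcKO and 2.27-fold lower in Vps34f/f (adjusted p = 0.0105 and 0.0335 by edgeR), with spike-in-scaled changes of -3.88 and -2.89. The Vps34f/f call of Pi4k2a rested on single libraries: without the second GV library, which held 30.9 CPM, the log2 change was -0.43 (edgeR adjusted p = 0.420), and without the first or second MII library the call was also lost (0.123 and 0.107). Fig4 had log2 changes of -0.48 (95% interval -1.83 to 0.88) in ZcKO and -0.86 (-2.17 to 0.46) in Vps34f/f, not called with TMM scaling. With 1 library left out they ran from -1.53 to -0.078 in ZcKO, the ends being without the first and the second ZcKO MII library, and from -1.38 to -0.36 in Vps34f/f, without the first and the second Vps34f/f MII library. Against the spike-ins the changes of Fig4 were -2.77 and -2.62, both called lower.

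**Figure D3:**
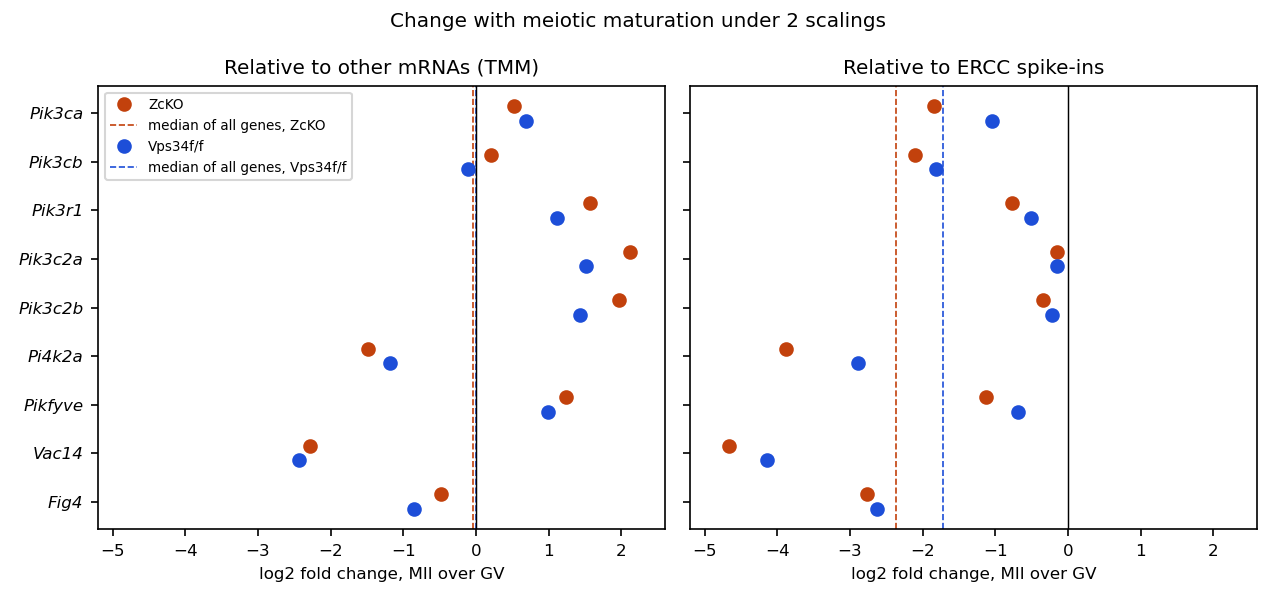
Log2 fold change of each gene at MII over GV (x axis) in ZcKO (orange) and Vps34f/f (blue), relative to other mRNAs on the left and to ERCC spike-ins on the right; dashed lines are the medians of all genes. With TMM scaling 5 genes lie to the right of 0 in both genotypes, Pik3ca the least (0.53 in ZcKO, 0.69 in Vps34f/f), and Vac14 and Pi4k2a to the left. Against the spike-ins all 9 lie to the left of 0, and Pik3c2a is nearest to it, at -0.15 in both.

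The order of Vac14 and Pikfyve turned between stages within libraries, a measure that does not depend on library scaling. Per kilobase of transcript, Vac14 had 0.331, 0.770 and 0.563 times the Pikfyve level in ZcKO MII libraries, and 6.81, 7.23 and 5.17 times in ZcKO GV libraries. In Vps34f/f the ratio was 0.939, 0.535 and 0.660 at MII, and 6.95, 8.40 and 6.58 at GV. The stages did not overlap in either genotype, while the genotypes overlapped at both stages. Levels of single genes did not overlap between stages for 65.3% of all genes in ZcKO and 67.3% in Vps34f/f, and no such share was computed for ratios. The ratio was 12.1-fold lower at MII than at GV in ZcKO and 10.5-fold lower in Vps34f/f (ratios of the geometric means). The ratio was chosen after these values had been seen, and sets a gene called lower at MII against one called higher. Its outcome in a test between stages was thus fixed in advance. A two-sided exact permutation test between stages gave p = 0.1 in each genotype, the smallest that 3 libraries against 3 allow, and 0.5 between genotypes at each stage.

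Whether the stage change differed between genotypes was asked with the interaction term of the same edgeR fit. It was called for 0 of the 9 genes, and for 0.00862% of all genes, and 0 of the 9 had an unadjusted p under 0.05, against 5.24% of all genes. DESeq2 called 0 of the 9 as well, and 0.0112% of all genes. The largest terms were those of Pik3c2a, 0.60 (95% interval -0.17 to 1.38), and Pik3c2b, 0.53 (-0.18 to 1.24), on the log2 scale, each with an adjusted p of 0.875 by edgeR's quasi-likelihood test. Relative to the spike-ins these terms were -0.0022 and -0.12.

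Levels between genes were compared as CPM per kilobase of the longest complete coding transcript. In ZcKO MII oocytes Pik3r1 stood first with 36.0 ± 0.658 CPM per kb, followed by Pik3c2a with 21.6 ± 1.10 and Pik3c2b with 10.7 ± 1.49 (SD, n = 3). Pik3ca (7.70 ± 0.615), Pikfyve (5.71 ± 0.767) and Vac14 came next, and no neighbours overlapped from Pik3r1 down to Vac14. Vac14, Pi4k2a and Pik3cb overlapped their neighbours at 3.17 ± 1.24, 2.13 ± 0.424 and 1.95 ± 0.305 CPM per kb, and Fig4 was last with 0.668 ± 0.635. In Vps34f/f MII oocytes Pik3r1 (27.2 ± 12.8 CPM per kb) and Pik3c2a (15.3 ± 5.82) overlapped, as did Pik3ca (6.94 ± 0.531) and Pik3c2b (6.72 ± 1.12), and Pikfyve, Vac14, Pi4k2a and Pik3cb followed, each overlapping the next, with Fig4 last.

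In GV oocytes the scaffold gene had the highest mean on this scale, an order that depends on the transcript length used. The annotated exons of Vac14 cover 6960 bases, against 3069 in the transcript used here. Without division by length Pik3r1 was higher at GV, with means of 95.1 CPM in ZcKO and 96.9 CPM in Vps34f/f, against 52.7 CPM for Vac14 in both. Vac14 had 17.2 ± 3.96 CPM per kb in ZcKO and 17.2 ± 3.29 in Vps34f/f, and overlapped Pik3r1 with 13.4 ± 0.671 and 13.6 ± 4.36. Pi4k2a, Pik3ca and Pik3c2a came next in both genotypes at 4.75 to 6.52 CPM per kb and overlapped one another. Pik3c2b (3.04 ± 0.663 in ZcKO, 2.78 ± 0.919 in Vps34f/f) overlapped Pikfyve (2.66 ± 0.201 and 2.33 ± 0.157), which overlapped Pik3cb in Vps34f/f and not in ZcKO. Pik3cb and Fig4 were lowest in both genotypes, with Fig4 at 0.986 ± 0.164 and 1.10 ± 0.187 CPM per kb.

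Transcript length moved with the stage change across the transcriptome. Among 10109 genes with a coding transcript length, the median log2 change relative to other mRNAs was -1.16 in ZcKO and -1.14 in Vps34f/f below 2 kb, and 0.65 and 0.55 from 8 kb up. The annotated transcripts of Vac14, Fig4 and Pi4k2a are 3069, 3282 and 3604 bases long, in a class from 2 to 4 kb with medians of -0.15 and -0.026. Pik3r1, Pik3c2b and Pik3cb, of 7113, 7928 and 6478 bases, fall in the class from 6 to 8 kb (medians 0.54 and 0.53), and Pik3c2a, Pik3ca and Pikfyve, of 8044, 8917 and 11237 bases, in the longest. In both genotypes Vac14, Pi4k2a, Fig4 and Pik3cb lay below the median of their class and Pik3c2a, Pik3c2b, Pik3r1 and Pikfyve above theirs. Pik3ca lay below its class in ZcKO and above it in Vps34f/f. The part of length in the stage changes was not tested, and the classes were chosen after the data had been seen.

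**Figure D4:**
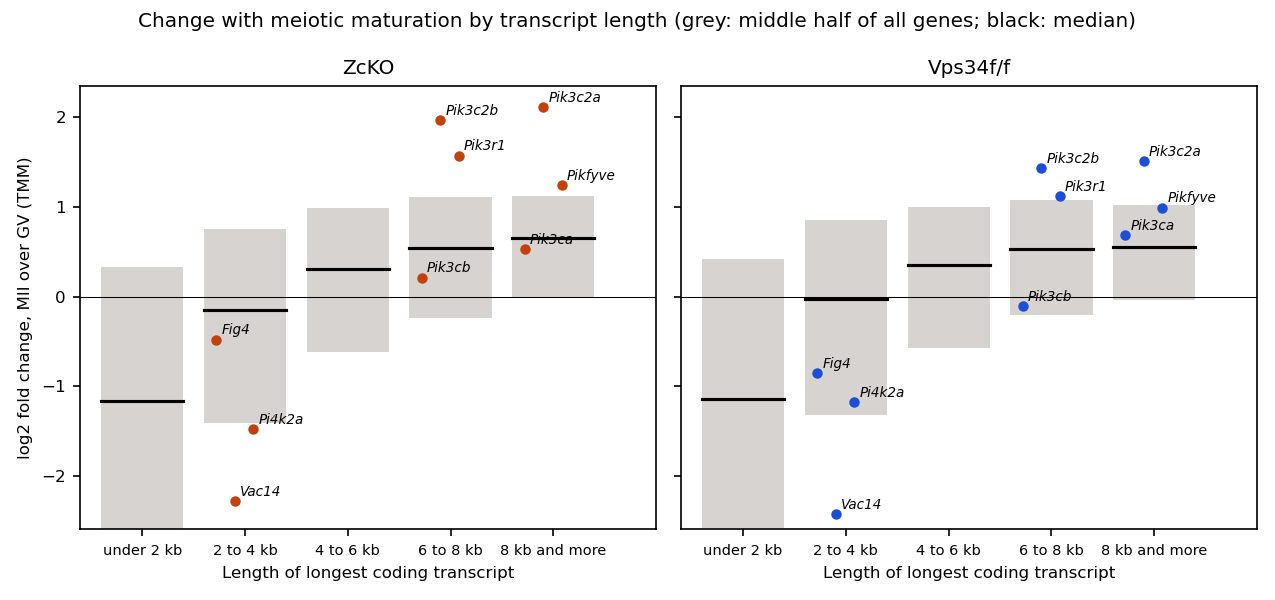
Log2 fold change at MII over GV (y axis, TMM scaling) by class of coding transcript length (x axis), in ZcKO on the left and Vps34f/f on the right; grey bars span the middle 50% of all genes, black lines are medians and points are the 9 genes. The medians climb from -1.16 to 0.65 in ZcKO and from -1.14 to 0.55 in Vps34f/f. Vac14 lies below the middle 50% of its class in both. Against the spike-ins the points of all 9 genes lie below 0.

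Of 85 other phosphoinositide genes in 7 lists, 83 were in the table. They hold other genes of 3-kinases and 4-kinases with proteins that bind them, PIP kinases and phosphatases. They also hold genes of phosphatidylinositol synthesis and transfer, the AKT and mTOR arm, and binders and channels of the PIKfyve product. In the genotype comparisons 55 were tested at each stage and 0 was called by edgeR's quasi-likelihood test at either, with median log2 fold changes of -0.015 at MII and 0.073 at GV. DESeq2 called 0 of them at either stage as well. An unadjusted edgeR p under 0.05 was reached by 7 of 55 at MII and 1 of 55 at GV, where the whole table had 9.01% and 2.20%. The 1 at GV was Mcoln1, the lysosomal calcium channel that the PIKfyve lipid opens, with a log2 fold change of -0.78 (unadjusted p = 0.00731 by edgeR). At MII the smallest p in these lists was that of Sacm1l, which removes phosphate from phosphatidylinositol 4-phosphate, at 0.68 (unadjusted p = 0.0223 by edgeR). The gene with the smallest p in each other list had log2 fold changes at MII of 0.60 for Gsk3b, 1.12 for Clcn7, 0.76 for Fam126a, 0.50 for Pip4k2a, -0.28 for Pik3cd and -0.34 for Cdipt. At GV they were 0.51 for Tsc2, 0.34 for Pi4ka, 0.36 for Cds1, 0.62 for Pip5k1c, 0.26 for Pik3ip1 and -0.36 for Inpp5f. None of these was called.

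Between stages, 22 of 59 such genes were called higher and 16 lower in ZcKO relative to other mRNAs, 64.4% against 63.5% of all genes by edgeR. In Vps34f/f 21 were higher and 12 lower, 55.9% against 63.9%. Their median log2 changes were 0.25 and 0.27, against -0.043 and 0.0056 for all genes. Relative to the spike-ins 0 of the 59 was called higher in either genotype, and 54 were called lower in ZcKO, where 88.0% of all genes were, and 40 in Vps34f/f, where 70.1% were. In the AKT and mTOR list, with TMM scaling, 10 of 20 were higher and 2 lower in ZcKO, where 29.5% of all genes were higher and 34.0% lower. In Vps34f/f 10 were higher and 1 lower, where 30.1% and 33.8% of all genes were. Against the spike-ins 0 of the 20 was higher in either genotype, and 19 were lower in ZcKO and 11 in Vps34f/f. The largest called rise in Vps34f/f was that of Rheb, an activator of mTOR (1.503, and -0.28 against the spike-ins, not called). In ZcKO it was that of the growth kinase gene Sgk1 (2.04, adjusted p = 0.00757 by edgeR), with 142, 32.1 and 18.5 CPM in ZcKO MII libraries and 13.1, 16.8 and 21.0 CPM in ZcKO GV libraries. The stages overlapped, and the high first MII library is the one with 779 CPM of cumulus and granulosa markers. Without it the change was 0.75 and was not called (adjusted p = 0.0564 by edgeR). The part of cumulus and granulosa cells in the Sgk1 change was not tested. Against the spike-ins Sgk1 was -0.14 in ZcKO, and with TMM scaling 0.75 in Vps34f/f (adjusted p = 0.264 by edgeR), neither called. Tsc2, which restrains mTOR, had the largest fall, at -3.37 in ZcKO and -2.79 in Vps34f/f, and -5.80 and -4.49 against the spike-ins. Of 4 tested PIP kinases 3 were called lower in ZcKO and 1 in Vps34f/f, and 0 was higher on either scale. The largest falls there were those of Pip5k1c in ZcKO (-2.03) and Pip5k1a in Vps34f/f (-1.22).

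In the remaining lists, rises and falls stood side by side relative to other mRNAs. Of 4 other 3-kinase genes, among them Pik3ip1 of an interacting protein, 2 were higher and 2 lower in each genotype. Pik3c2g, the gamma form of class II, was highest at 3.34 in ZcKO and 2.95 in Vps34f/f (1.27 and 1.28 against the spike-ins, not called). Pik3c2g was near the limit of detection, with 4.19 ± 3.73 CPM at MII and 0.418 ± 0.216 CPM at GV in ZcKO. In Vps34f/f it had 3.32 ± 1.33 and 0.431 ± 0.0948 CPM (SD, n = 3 each), and it had too few counts to be tested between genotypes at GV. Of 7 genes of 4-kinases and their scaffolds 3 were higher and 2 lower in ZcKO, and 2 higher and 1 lower in Vps34f/f. Efr3a, a plasma membrane anchor of the 4-kinase, changed by 1.40 in ZcKO and 1.52 in Vps34f/f, and the kinase gene Pi4ka by -1.15 and -1.19. Against the spike-ins Efr3a was -0.95 and -0.18. Of 13 phosphatases 5 were higher and 3 lower in ZcKO, and 5 higher and 2 lower in Vps34f/f. Of 6 genes of synthesis and transfer 1 was higher and 3 lower in each genotype. The shares of all genes were 29.5% higher and 34.0% lower in ZcKO, and 30.1% and 33.8% in Vps34f/f. Against the spike-ins 0 genes of these 4 lists were higher. Lower on that scale were 3 of the 3-kinase genes in each genotype, and 7 of the 4-kinase genes in ZcKO and 5 in Vps34f/f. So were 11 and 9 of the phosphatases, and 5 of the genes of synthesis and transfer in each.

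Patterns most like those of the PIKfyve complex genes were ranked by the root mean square difference of centred log2 CPM over the 12 libraries among 11607 genes. For Pikfyve the nearest were Myo9a (0.13), Cwf19l2 (0.16) and Qser1 (0.16), where the median gene differed by 0.78. For Vac14 they were Stk36 (0.22), Sipa1l3 (0.24) and Ccdc105 (0.26), with a median of 1.28. Fig4, with its low counts, had no gene nearer than 0.39 (Gm14270), followed by Mmgt2 (0.40) and Slc25a20 (0.42), with a median of 0.98.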

How the data were processed

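Per the labels' protocols, cDNA was made by Smart-seq2, ERCC RNAs were added, and KAPA HyperPlus reagents were used for the libraries. The authors deposited 1 table of raw whole-number counts of reads, with 1 row per gene symbol (55383 entries, 92 of them spike-ins). fastp, HISAT2, featureCounts and mm10 are named per the submitters' processing notes. Versions, gene annotation, strand handling and multi-mapping rules were not given in the sources used here. Columns were matched to samples by name, and 6 columns that match no label were not used.

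Tests of the counts used edgeR 4.0.16 under R 4.3.3 (TMM scaling, filterByExpr, robust quasi-likelihood fit, Benjamini-Hochberg adjustment over all genes tested, threshold 0.05). Genotypes were compared within a stage on 6 libraries, and stages and the interaction in 1 fit of all 12. Standard errors were derived from each F statistic. CPM were computed over gene totals, without TMM factors. The code was tested on simulated data. Alternatives were DESeq2 1.42.0, spike-in totals as library sizes, no filter on low counts, other gene sets for TMM, a replicate block and each library left out. Replicates of a group differed by more than sampling noise (smallest chi-square per degree of freedom 4.87). Transcript lengths, coordinates and sequences came from GENCODE M21 and GRCm38, with a length for 87.1% of tested genes.

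The 9 genes and the lists were chosen with earlier results of these data known. The genes named beside the 9 were the deleted gene, those with the smallest p in a list for a comparison of genotypes or the largest called change for a comparison of stages, and the 3 genes nearest in pattern to Pikfyve, Vac14 and Fig4. The lists held 85 genes, and 2 older symbols were not matched. A result for 1 gene of the lists is not reported here.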

Additional observations from a re-analysis of the deposited data

How the results depend on the processing

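Under every alternative run, 0 of the 9 genes was called in the genotype comparisons and the interaction, and 6 to 7 between stages in ZcKO and 5 to 7 in Vps34f/f. These stage counts hide a change of direction. With spike-in totals the 6 calls in ZcKO and 5 in Vps34f/f were all lower, whereas the main fit called 5 higher and 2 lower in each genotype. Over all genes, the GV genotype count of 9 was 28 without the filter on low counts, 3 in a fit of all 12 libraries and 2 to 10 with a library left out (2 without the second ZcKO library, 4 without the second Vps34f/f library). The MII count of 0 was 1 with DESeq2, 96 without the filter and 0 with any library left out. The interaction count of 1 was 3 with DESeq2, 3 with spike-in totals, 18 without the filter and 0 to 3 with a library left out. Leaving out a library gave 6671 to 7685 stage calls in ZcKO, 6789 to 7703 in Vps34f/f, and 6 to 7 of the 9 genes in each.

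Spike-in totals as library sizes reversed log2 fold changes, none of them called in a genotype comparison or the interaction. At MII, ZcKO over Vps34f/f, Pik3ca was -0.061, Pik3cb -0.046, Vac14 -0.075 and Pi4k2a -0.11. At GV, Pik3cb was 0.25, Pik3c2a 0.26, Pik3r1 0.43, Fig4 0.27 and Vac14 0.45. For MII over GV in ZcKO, Pik3ca was -1.84, Pik3cb -2.11, Pik3c2a -0.15, Pik3c2b -0.34, Pik3r1 -0.78 and Pikfyve -1.13. In Vps34f/f, Pik3ca was -1.05, Pik3c2a -0.15, Pik3c2b -0.22, Pik3r1 -0.50 and Pikfyve -0.69. The interaction was -0.29 for Pik3cb, -0.0022 for Pik3c2a, -0.12 for Pik3c2b, -0.27 for Pik3r1, -0.44 for Pikfyve, -0.14 for Fig4 and -0.52 for Vac14. The scale itself shifted the genes tested by a median of 0.45 at GV and -0.16 at MII.

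Signs also turned with a library left out. At GV the ranges were -0.34 to 0.050 for Pik3c2a, -0.056 to 0.35 for Pik3c2b, -0.26 to 0.13 for Pik3r1 and -0.21 to 0.16 for Vac14. At MII they were -0.090 to 0.40 for Vac14 and -0.12 to 0.57 for Pi4k2a. Between stages in Vps34f/f, Pik3cb ranged from -0.22 to 0.046, and the interaction from -0.68 to 0.90 for Fig4, -0.066 to 0.44 for Vac14 and -1.04 to 0.19 for Pi4k2a.

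Same-numbered libraries were not all correlated above 0.1 in their deviations, between genotypes (-0.25, 0.022 and 0.24 at GV and -0.20, -0.090 and 0.014 at MII) or between stages (-0.016, -0.058 and -0.11 in ZcKO and -0.10, -0.014 and 0.028 in Vps34f/f), so the numbers were not taken to pair samples. With the replicate block the GV genotype count was 11, the MII count 0, the stage counts 7233 in ZcKO and 7272 in Vps34f/f and the interaction count 1, and Pi4k2a in Vps34f/f was not called between stages (-1.03, edgeR adjusted p = 0.0601). Without the filter, Pik3ca was not called between stages (0.46 in ZcKO, 0.59 in Vps34f/f, edgeR adjusted p = 0.168 and 0.0565). The 4 ribosomal RNA models named for the TMM alternative were not found, so it left out mitochondrial genes only, and CT010467.1 was left out in an alternative chosen after seeing the data. Depth limits Fig4, with 1 to 18 counts per library. The cause of these changes was not tested.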

Other observations

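Other genes of the family outside the 9 genes changed with maturation relative to other mRNAs. Pik3cd, the p110δ catalytic gene of class I, stood above all 9 genes per length at GV, with 63.4 ± 19.3 CPM per kb in ZcKO and 58.6 ± 11.8 in Vps34f/f, and had 15.8 ± 2.92 and 18.6 ± 0.906 CPM per kb at MII (SD, n = 3 each). Its log2 change at MII over GV was -1.88 in ZcKO (SE 0.24, adjusted p = 2.5e-06 by edgeR's quasi-likelihood test) and -1.52 in Vps34f/f, and -4.30 and -3.25 against the spike-ins.

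Cdipt, which makes phosphatidylinositol itself, was lower at MII, with log2 changes of -2.64 in ZcKO and -2.18 in Vps34f/f, both called by edgeR, and -4.97 and -3.93 against the spike-ins. Wipi2, a reader of the VPS34 lipid on autophagosomes, had log2 changes of -3.01 and -2.44, and -5.23 and -4.17 against the spike-ins, all called by edgeR. Wipi1 had 1.06 and 0.88 relative to other mRNAs, both called, and -1.22 (called) and -0.85 (not called) against the spike-ins. None of these was called between genotypes.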
